A study of Mus musculus with 36 samples.

Results

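Bulk mRNA sequencing of 36 subcutaneous mouse tumours was examined for the genes that accompany the CD8 T cell transcript Cd8a. The comparison is between 5 CD8-rich and 5 CD8-poor tumours within the class of libraries that express H2-Ea-ps, the mouse gene for the alpha chain of the class II molecule I-E. The libraries were selected on measured values. Of the 36 libraries, 12 held more than 10 CPM of H2-Ea-ps (CPM being reads scaled to a common library size of 1000000 assigned reads). One of these, PancO2 anti-PD-1 71 by its label, is kept out of the groups, and the other 11 were ranked by Cd8a CPM. The upper 5 formed the CD8-rich group, the lower 5 the CD8-poor group, and 1 library fell in the middle and belonged to neither. Because Cd8a chose the groups, every difference between them is a description and carries no p-value.

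The labels name 3 transplanted lines, which are MC38 colon adenocarcinoma and PancO2 pancreatic adenocarcinoma in C57BL/6J mice and CT26 colon carcinoma in BALB/c mice. Mice were labelled 12 weeks old and received control IgG, anti-CTLA4 or anti-PD-1, each given intraperitoneally at 10 mg per kg, and each library carries its own mouse number. The CD8-rich libraries were labelled CT26 IgG 27, MC38 IgG 4, PancO2 anti-PD-1 64, PancO2 IgG 54 and MC38 anti-CTLA4 14, and the CD8-poor libraries CT26 anti-CTLA4 34, MC38 IgG 3, MC38 anti-PD-1 16, PancO2 anti-CTLA4 62 and CT26 anti-PD-1 42. The middle library was labelled CT26 anti-CTLA4 35. A deletion in its promoter keeps H2-Ea-ps silent in the C57BL/6 strain, whereas the gene is active in BALB/c mice. The class nevertheless held libraries labelled with all 3 models, so these names go against the labels' strains and are used here only to identify libraries. IgG was the label of 3 CD8-rich libraries and of 1 CD8-poor library, and treatments were not compared.

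CD8 T cells recognise peptides on major histocompatibility complex (MHC) class I molecules through the T cell receptor, with CD8 as co-receptor. When activated they kill target cells and secrete interferon gamma. That cytokine acts on many cell types and induces guanylate-binding proteins, immunity-related GTPases, chemokines such as Cxcl9, and, through the transactivator Ciita, the MHC class II genes. RNA of a whole tumour does not separate fewer cells of a type from less RNA per cell.

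Cd8a, at chr6:71373427-71379173 on the plus strand of GRCm38, stood at 20.1, 18.7, 17.99, 16.4 and 15.99 CPM in the CD8-rich libraries in the order named above. It stood at 13.6 CPM in the middle library, at 12.1, 11.8, 10.5, 9.75 and 6.00 CPM in the CD8-poor libraries, and at 13.95 CPM in the library left out. The means were 17.8 ± 1.70 and 10.0 ± 2.44 CPM (SD, n = 5 each), a ratio of 1.78. These values rested on 230 to 566 Cd8a reads in the CD8-rich and 140 to 402 in the CD8-poor libraries, counting error being relatively largest in the lowest of these. H2-Ea-ps ran from 83.9 to 134 CPM in the CD8-rich and from 32.8 to 57.9 CPM in the CD8-poor libraries, and no library outside the class exceeded 0.0845 CPM. The names CD8-rich and CD8-poor are relative to this class. In the 24 libraries without H2-Ea-ps, Cd8a averaged 21.2 CPM, more than in the CD8-rich group, and ran from 0.851 to 57.9 CPM.

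Library totals ran from 14059776 to 28135081 assigned reads in the CD8-rich group and from 13396330 to 33199177 in the CD8-poor group. Mitochondrial genes took 3.89% to 4.11% and 3.95% to 4.27% of them. The library left out had 7883106 reads, of which 15.7% were mitochondrial, and stood apart in many genes below. The other 24 libraries, which lack H2-Ea-ps, were not used to form the groups and serve as the test of whether a gene follows Cd8a elsewhere.

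A gene was said to follow the split when its mean over the 11 libraries was at least 1 CPM, when no CD8-rich value overlapped a CD8-poor value, and when the ratio of the means was at least 1.5. Of 13250 genes described, 102 were higher (0.77%) and 9 lower (0.0679%) in the CD8-rich libraries. Of these, 10 higher and 1 lower genes had a mean below 1 CPM in their low group and so met the minimum through the other group. Without the condition on the ratio, 163 and 97 genes did not overlap. The median log2 difference of all described genes was -0.02, and 5789 of the 13250 differences were above 0. Of the 102 higher genes, 45 belonged to lists of immune, stromal and metabolic genes and 11 had no symbol in the tables used. No list member was lower. The plot of gene lists orders the lists by their median.

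**Figure D1:**
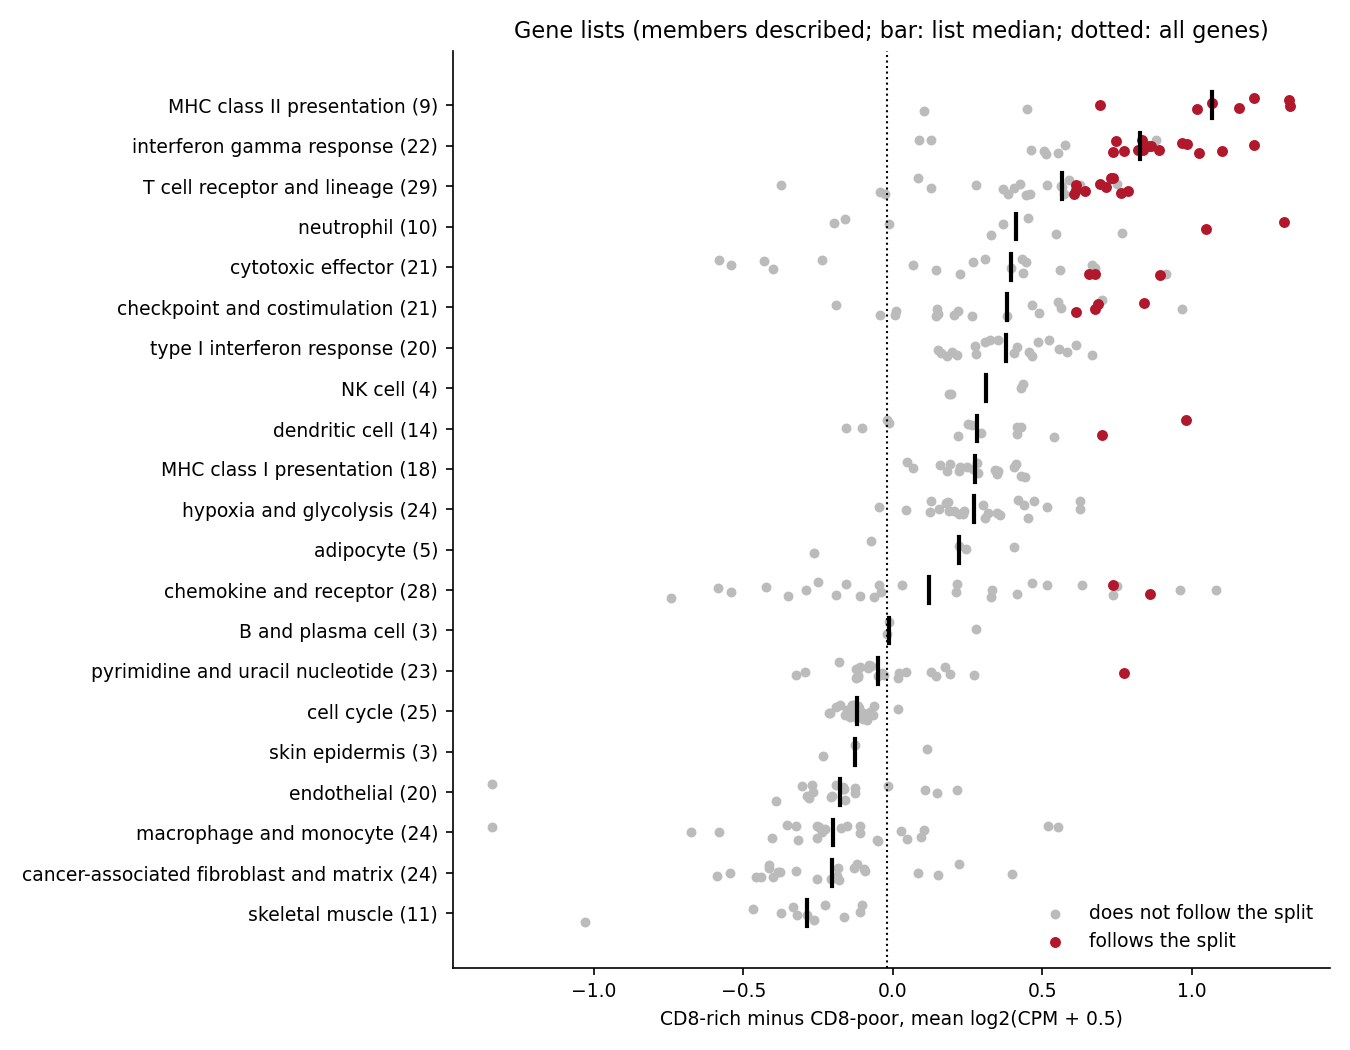
Each point is a member of a gene list with at least 1 CPM, placed by its CD8-rich minus CD8-poor difference in mean log2(CPM + 0.5), with the number of members in parentheses, red points for genes that follow the split, a bar at the list median and a dotted line at the median of all genes. The MHC class II list has the highest median (1.07), followed by the interferon gamma response list (0.83) and the T cell list (0.57), while skeletal muscle, fibroblast and macrophage lists lie below 0.

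T cell genes formed the first group. Of 29 described members of the receptor and lineage list, 10 were higher in the CD8-rich libraries, among them Cd8b1, Cd3g, Cd247, Trac, Lat, Cd6, Themis, Il2ra and Bcl11b, and the list's median log2 difference was 0.57. Bcl11b averaged 1.75 CPM in the CD8-rich and 0.809 CPM in the CD8-poor libraries, so it met the minimum of 1 CPM through the CD8-rich group. Cd8b1, the beta chain of CD8, lies beside Cd8a at chr6:71322788-71337494. It measured 4.34, 3.70, 4.58, 4.27 and 3.85 CPM in the CD8-rich and 2.50, 2.85, 2.31, 2.12 and 1.79 CPM in the CD8-poor libraries. The middle library held 3.21 CPM of Cd8b1, between the groups. Ranking by Cd8b1 in place of Cd8a therefore gave the same 2 groups, which restates these values and is no further check. Cd3g, a chain of the T cell receptor complex, averaged 8.20 ± 1.13 against 5.24 ± 1.09 CPM, and Trac, the constant region of the receptor's alpha chain, 3.81 ± 0.807 against 2.15 ± 0.439 CPM.

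The markers of CD4 and regulatory T cells did not follow the split. Cd4 averaged 2.12 ± 0.573 against 1.345 ± 0.473 CPM, a ratio of 1.58 that met the minimum, and it missed the split through overlap alone. It ranged from 1.35 to 2.92 CPM in the CD8-rich and from 0.747 to 1.87 CPM in the CD8-poor libraries. Foxp3, which defines regulatory T cells, averaged 1.21 ± 0.362 and 1.22 ± 0.235 CPM. Thy1 and Il2rb, the members outside the split with the highest CPM, overlapped as well, at ratios of 1.04 and 1.35. The summed level of the list ran from 175 to 208 CPM in the CD8-rich and from 132 to 182 CPM in the CD8-poor libraries, the highest CD8-poor sum being that of PancO2 anti-CTLA4 62.

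Of 21 described cytotoxic effector genes, 3 followed the split. Ifng, which encodes interferon gamma, stood at 1.99, 1.27, 1.78, 1.71 and 1.57 CPM in the CD8-rich and at 0.964, 0.809, 0.299, 0.647 and 0.684 CPM in the CD8-poor libraries, a ratio of 2.44. All 5 CD8-poor values of Ifng were below 1 CPM, so it met the minimum of 1 CPM through the CD8-rich group. Klrd1 and Klrc1, which encode the paired CD94 and NKG2A receptors, averaged 8.51 ± 0.855 against 5.26 ± 1.37 CPM and 4.42 ± 0.677 against 2.68 ± 0.770 CPM. The granzymes with the highest CPM varied more within groups than between them. Gzmf ran from 16.9 to 166 CPM in the CD8-rich and from 59.0 to 128 CPM in the CD8-poor libraries, and Gzmg from 8.12 to 120 and from 40.6 to 94.7 CPM. None of the 4 described members of the natural killer cell list followed the split, at a median log2 difference of 0.31. Ncr1, the defining receptor of natural killer cells, averaged 4.81 ± 0.992 and 3.55 ± 1.504 CPM. That list left out Klrd1 and Klrc1, counted as cytotoxic, and Klrc2, which was in no list. Klrc2 also followed the split, at 2.84 ± 0.202 against 1.52 ± 0.385 CPM.

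Among 21 described checkpoint and costimulation genes, 4 were higher. Pdcd1, which encodes PD-1, measured 5.62, 6.79, 6.09, 8.25 and 5.83 CPM in the CD8-rich and 4.37, 5.18, 3.88, 3.99 and 2.38 CPM in the CD8-poor libraries. Lag3, an inhibitory receptor, averaged 5.40 ± 0.475 against 3.40 ± 0.7098 CPM, and Icos, a costimulatory receptor, 4.42 ± 0.764 against 2.54 ± 0.310 CPM. Cd274, the gene of the PD-1 ligand PD-L1, stood at 72.0, 68.4, 84.3, 95.4 and 59.0 CPM against 41.84, 40.7, 35.8, 43.2 and 46.9 CPM. The lowest CD8-rich level of Cd274 was thus above the highest CD8-poor level, and the ratio of the means was 1.82. Tnfrsf9 and Lgals9 overlapped between the groups, with means of 96.3 against 74.5 CPM and 68.8 against 68.9 CPM.

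The MHC class II genes had the highest median difference of any list. Of 9 described members, 7 followed the split, and the median log2 difference was 1.07. H2-Aa, the alpha chain of the class II molecule I-A, stood at 118, 103, 112, 153 and 89.7 CPM in the CD8-rich and at 54.6, 42.2, 35.4, 61.7 and 54.03 CPM in the CD8-poor libraries. Its middle library held 71.6 CPM, between the groups. H2-Ab1, the I-A beta chain, averaged 76.3 ± 13.1 against 34.5 ± 8.98 CPM, and H2-Eb1, the I-E beta chain, 84.8 ± 17.2 against 34.1 ± 9.90 CPM. Cd74, the invariant chain that occupies the groove of new class II molecules, averaged 341 ± 48.2 against 171 ± 42.1 CPM. Ciita, the master transactivator of these genes, measured 16.8, 10.7, 11.3, 15.1 and 12.1 CPM against 4.46, 3.75, 3.43, 8.49 and 5.57 CPM, a ratio of 2.57.

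The peptide-loading genes H2-DMb1 and H2-DMb2 also followed the split, and H2-DMb1 averaged 15.7 ± 2.40 against 7.22 ± 1.23 CPM. The 2 described members that did not were H2-DMa, whose groups did not overlap but whose ratio was 1.36, and Ctss, a protease of many macrophages, at 306 ± 48.3 against 285 ± 50.6 CPM. H2-DMb1 and H2-DMb2 are close copies, so reads could be divided between them or dropped.

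Levels of antigen-presenting cell markers are given beside the class II result. None of 24 described macrophage and monocyte genes followed the split, their median log2 difference was -0.20, and their summed level ran from 6418 to 8512 CPM in the CD8-rich and from 6932 to 9078 CPM in the CD8-poor libraries. Lyz2, a lysozyme of myeloid cells, averaged 666 ± 184 and 711 ± 165 CPM. Summed dendritic cell markers ran from 391 to 451 and from 360 to 492 CPM, and 2 of 14 followed the split. Of these, Xcr1, the receptor that marks conventional type 1 dendritic cells, stood at 3.70, 4.36, 3.72, 2.63 and 3.10 CPM against 1.36, 1.42, 1.64, 1.98 and 1.21 CPM. Siglech, a marker of plasmacytoid dendritic cells, averaged 2.07 ± 0.512 against 1.06 ± 0.155 CPM. The 3 described B and plasma cell genes did not follow the split, and Ighm averaged 13.4 ± 2.78 and 13.5 ± 2.28 CPM. The part of these cells in the class II result was not tested.

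**Figure D2:**
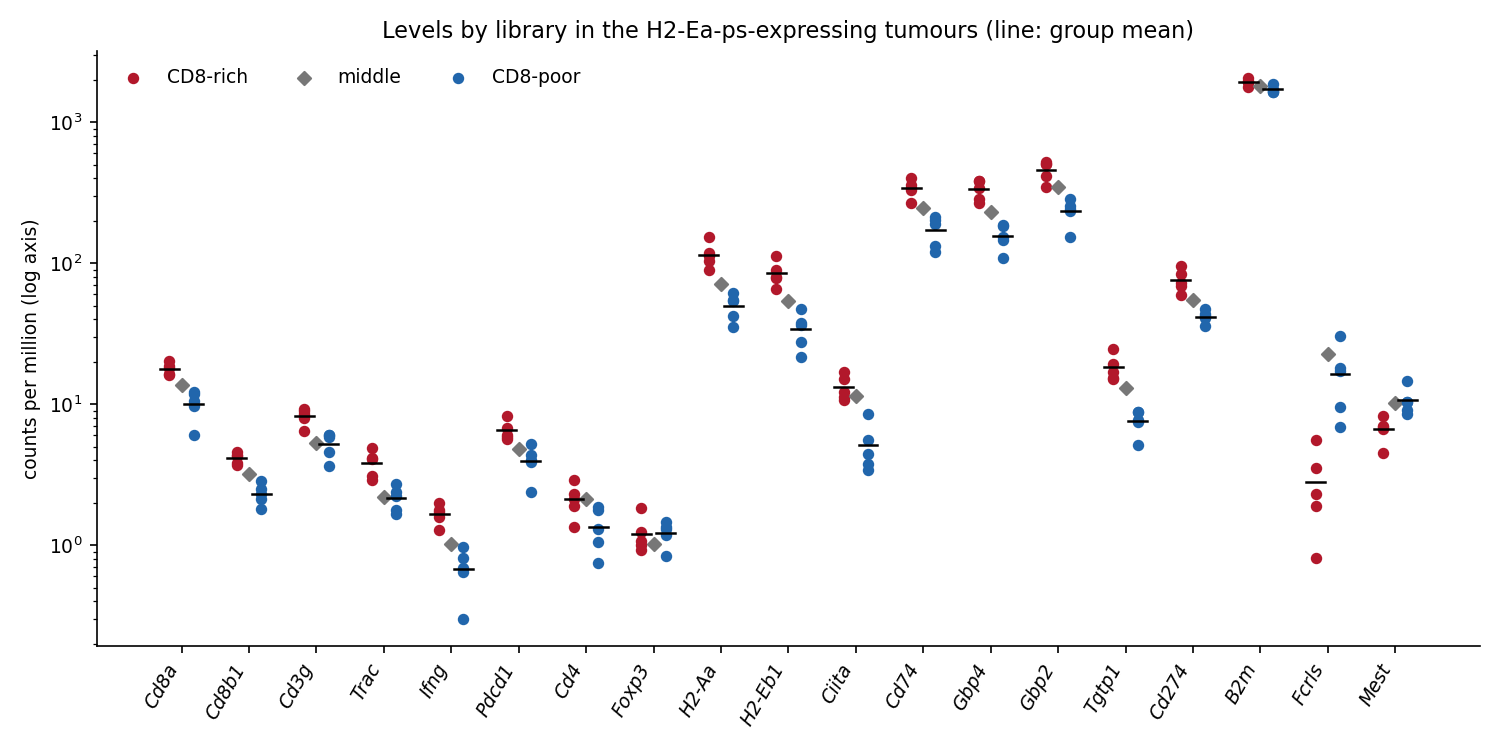
CPM of named genes on a log axis, with each point a library, CD8-rich in red, CD8-poor in blue, the middle library as a grey diamond and a line at each group mean. The groups are separate in Cd8b1, Ifng, the class II genes, the guanylate-binding proteins and Cd274, and overlap in Cd4, Foxp3 and B2m.

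The interferon gamma response held the largest number of followers. Of 22 described members, 14 were higher, all 22 differences were above 0 and the median was 0.83 on the log2 scale. The 14 were the guanylate-binding proteins Gbp2, Gbp3, Gbp4 and Gbp7, the immunity-related GTPases Igtp, Irgm1, Irgm2, Iigp1, Tgtp1 and Tgtp2, and Cxcl9, Nos2, Ubd and Batf2. Gbp2 stood at 508, 412, 503, 519 and 349 CPM in the CD8-rich and at 233, 241, 154, 253 and 285 CPM in the CD8-poor libraries. Gbp4 averaged 333 ± 54.5 against 156 ± 31.4 CPM and Iigp1 290 ± 50.4 against 150 ± 35.8 CPM. Tgtp1 averaged 18.2 ± 3.93 against 7.58 ± 1.504 CPM, a ratio of 2.40. The summed list ran from 2535 to 3594 CPM in the CD8-rich and from 1317 to 2198 CPM in the CD8-poor libraries, with 2419 CPM in the middle library.

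Several of these genes share reads or overlap in the annotation. Gbp4, Gbp8 and Gbp9 overlap on the minus strand of chromosome 5, and Igtp overlaps Irgm2 on chromosome 11. Tgtp1 is overlapped on its own strand of chromosome 11 by Gm12185, a predicted gene outside the list. Tgtp1 and Tgtp2 are near-identical copies. The separate counts of all these genes are therefore uncertain. Gbp2, Gbp2b, Gbp3 and Gbp7 lie in a row on chromosome 3.

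Other interferon and antigen presentation genes differed less. Irf1, a transcription factor that interferon gamma induces, averaged 152 ± 12.6 against 107 ± 16.4 CPM without overlap, but at a ratio of 1.42. None of 20 type I interferon response genes followed the split, although all 20 differences were above 0, with a median of 0.38. None of 18 MHC class I presentation genes followed it either, with all 18 above 0 and a median of 0.28. B2m, the common class I light chain, ran from 1766 to 2063 CPM and from 1638 to 1862 CPM, and H2-D1, a class I heavy chain, averaged 1472 ± 111 and 1320.4 ± 106 CPM.

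The bases before the start sites of 4 of these genes are shown because they carry the motifs named for interferon and class II control. Sequences are RefSeq windows of GRCm38.p6, written 5′ to 3′ on the strand of the gene, each being the 150 bases before the start. Capitals mark an ISRE core (GAAANNGAA), a GAS element (TTCNNNGAA) or the Y box of class II promoters (CTGATTGG), on either strand.
Gbp7, chr3:142530186-142530335, plus strand: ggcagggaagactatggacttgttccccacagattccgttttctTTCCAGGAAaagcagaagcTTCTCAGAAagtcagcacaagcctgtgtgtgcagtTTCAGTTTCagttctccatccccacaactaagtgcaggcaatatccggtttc
Igtp, chr11:58199406-58199555, plus strand: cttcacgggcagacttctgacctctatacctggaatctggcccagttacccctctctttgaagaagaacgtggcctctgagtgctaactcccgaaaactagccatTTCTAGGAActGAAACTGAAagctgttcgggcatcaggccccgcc
H2-Aa, chr17:34287824-34287973, minus strand: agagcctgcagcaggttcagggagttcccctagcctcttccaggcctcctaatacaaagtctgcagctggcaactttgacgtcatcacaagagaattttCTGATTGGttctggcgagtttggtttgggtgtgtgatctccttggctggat
H2-Eb1, chr17:34305717-34305866, plus strand: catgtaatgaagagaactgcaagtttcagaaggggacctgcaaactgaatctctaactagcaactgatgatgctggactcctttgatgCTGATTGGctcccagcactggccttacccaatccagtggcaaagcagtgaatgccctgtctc

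In Igtp, the GAS element at -45 to -37 stands just before the ISRE core at -34 to -26, counted from the start site. Gbp7 has GAS elements at -106 to -98 and -87 to -79 and an ISRE core at -52 to -44. In the windows of 250 bases before to 50 bases after each start, the ISRE core was found in 9.76% of 27025 genes and in 18 of the 63 higher genes with a window (of 91 with a symbol). Among interferon gamma response followers it was found in 9 of 10, and in none of the 6 T cell followers with a window. The GAS element stood in 9.55% of all windows and in 14 of the 63, and either of the 2 motifs in 17.9% and in 25 of the 63. The Y box stood in 4.7% of all windows, in 4 of the 63 (6.35%), and in 2 of the 4 class II followers with a window. Of the 9840 described genes with a window, 9.2% held the ISRE core, 8.51% the GAS element, 16.6% either of these and 6.68% the Y box. The share of the Y box among the higher genes was thus close to that of described genes. A match of letters is a description and not a binding site.

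Beyond the lists, 57 higher genes remained. Apol6, of the apolipoprotein L family, had one of the largest ratios and stood at 40.02, 20.4, 29.9, 29.7 and 18.9 CPM against 10.2, 9.48, 7.76, 12.9 and 8.73 CPM. Gm12185 and Gm4841, predicted genes, averaged 25.5 ± 8.45 against 10.5 ± 1.54 CPM and 32.9 ± 7.95 against 14.4 ± 2.15 CPM. Others without further values here were Gbp2b, Gbp8, Gbp9, Il18bp, Irf4, Stat4, Il18r1, Ly6a and the complement genes C1ra, C1s1 and C1s2, chosen for mention after their values were seen.

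Neutrophil and chemokine genes gave a few followers each. S100a9 and S100a8, the subunits of calprotectin, were 2 of 10 described neutrophil genes. S100a9 stood at 8.57, 13.9, 22.3, 17.1 and 7.59 CPM against 5.75, 6.50, 4.78, 3.35 and 4.63 CPM, so that its lowest CD8-rich value lay just above its highest CD8-poor value. S100a8 averaged 6.88 ± 2.78 against 2.88 ± 0.503 CPM. Of 28 described chemokine and receptor genes, Ccl8 averaged 54.3 ± 13.98 against 31.9 ± 4.24 CPM and Cxcl1, which attracts neutrophils, 23.1 ± 9.93 against 12.1 ± 2.64 CPM. The chemokine Cxcl9 and the receptor Xcr1 also followed the split but are counted in the interferon gamma response and dendritic cell lists. The summed neutrophil list ran from 59.7 to 149 CPM and from 56.2 to 69.0 CPM, overlapping.

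**Figure D3:**
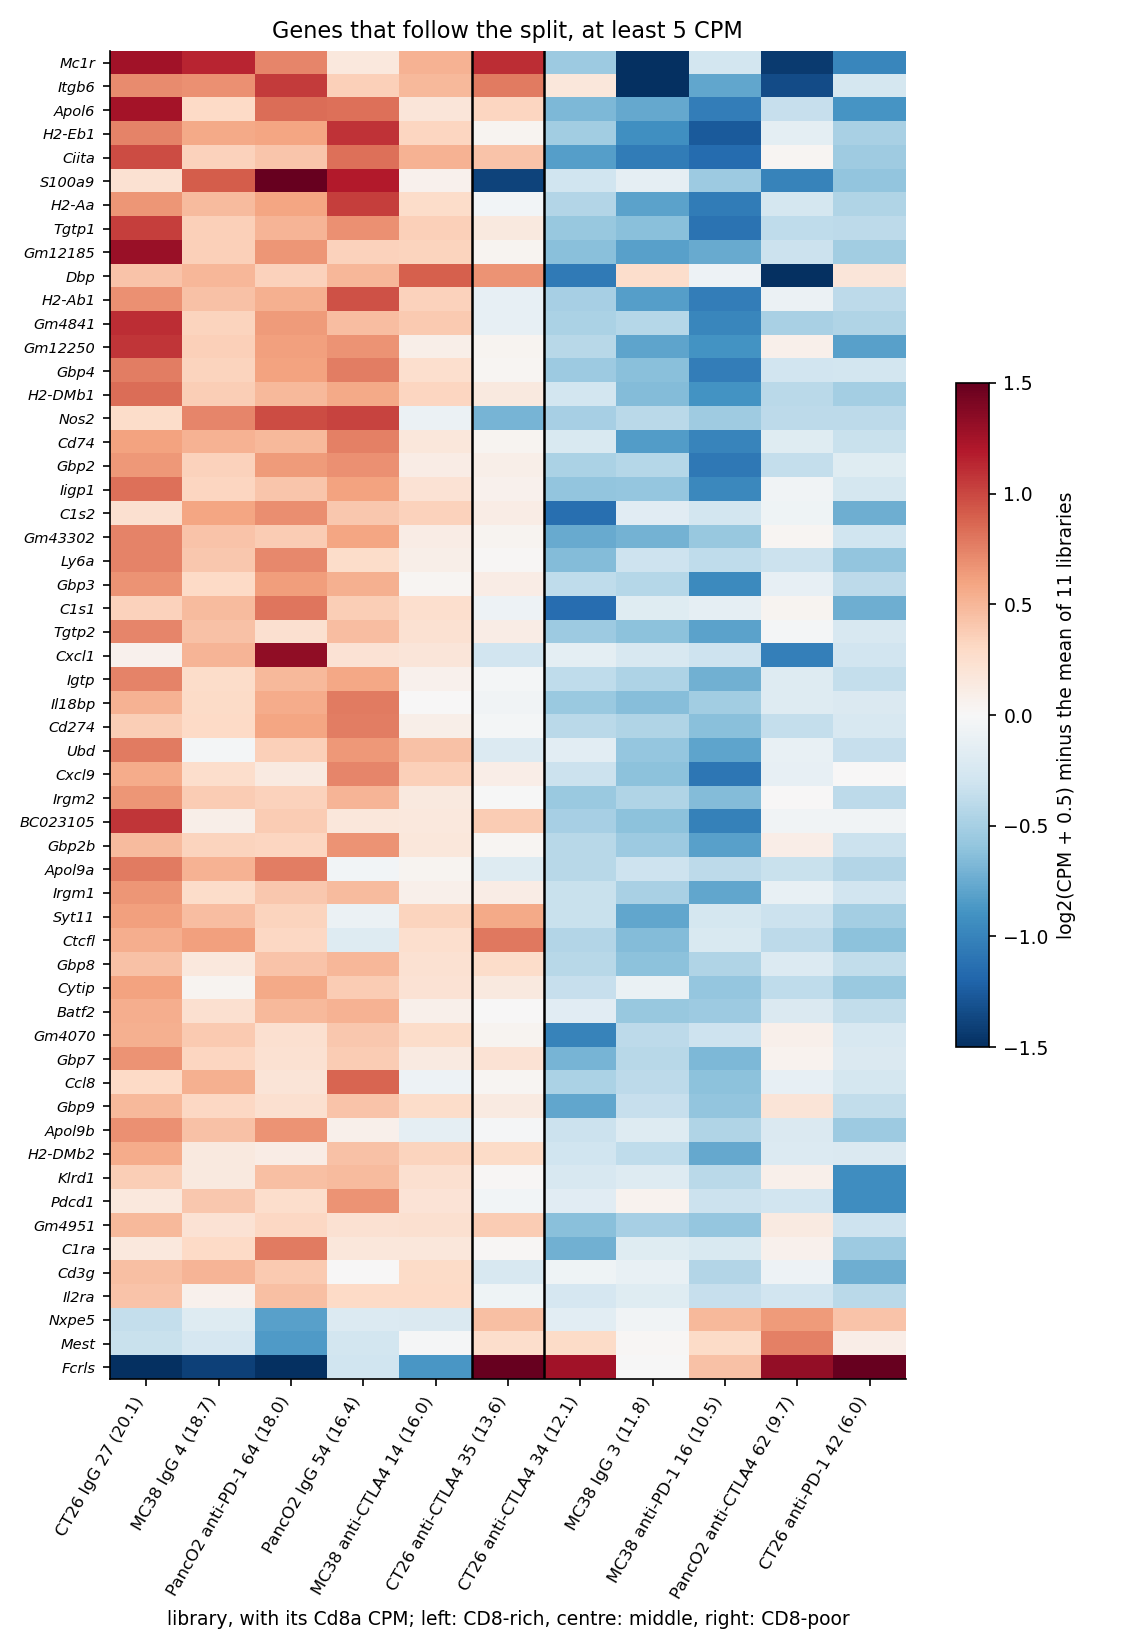
Log2(CPM + 0.5) minus the mean of the 11 libraries for genes that follow the split with a symbol and at least 5 CPM, sorted by difference, with libraries in columns from most to least Cd8a and lines on either side of the middle library. MC38 anti-PD-1 16 has the lowest value of the 11 in 7 of 7 class II and 11 of 14 interferon gamma response followers, although it is not the library with the least Cd8a.

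Within the groups, the order of the interferon genes was not the order of Cd8a. MC38 anti-PD-1 16 had the lowest summed interferon gamma response of the class, at 1317 CPM, with 10.5 CPM of Cd8a, whereas CT26 anti-PD-1 42, with the least Cd8a at 6.00 CPM, had 1987 CPM. The sums of PancO2 anti-CTLA4 62 were the highest of the CD8-poor group in the T cell, interferon gamma response and class II lists, at 182, 2198 and 781 CPM.

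Of the 9 lower genes, 3 reached a mean of 5 CPM. Fcrls, an Fc receptor-like gene of tissue macrophages and microglia, stood at 1.88, 2.30, 0.808, 5.55 and 3.55 CPM in the CD8-rich and at 17.3, 6.89, 9.55, 17.9 and 30.6 CPM in the CD8-poor libraries, the smallest ratio of those 3 at 0.171. Mest, an imprinted gene, averaged 6.66 ± 1.38 against 10.6 ± 2.40 CPM, and Nxpe5 10.6 ± 1.82 against 16.8 ± 4.03 CPM. The other 6 were Smpd2, Tmem144, Kcne3, Ankdd1b, Lipg and Slc39a8.

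Stromal, proliferation and other tissue genes did not follow the split. The medians on the log2 scale were -0.20 for 24 fibroblast and matrix genes, -0.18 for 20 endothelial genes, -0.12 for 25 cell cycle genes and -0.29 for 11 skeletal muscle genes. Col1a2, a fibrillar collagen, averaged 1436 ± 117 and 1571 ± 245 CPM, and Top2a, a marker of dividing cells, 600 ± 53.4 and 643 ± 79.1 CPM. Of 24 hypoxia and glycolysis genes none followed the split, yet 23 differences were above 0 at a median of 0.27, and their sum ran from 6707 to 11034 CPM against 4673 to 9567 CPM. For the 3 skin and 5 adipocyte genes described the medians were -0.13 and 0.22.

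Genes of pyrimidine metabolism were close to the median of all genes, at -0.05 over 23 members. Cda, which encodes the cytidine deaminase at the centre of the study, stood at 6.90, 5.64, 8.08, 7.61 and 5.04 CPM in the CD8-rich and at 8.43, 6.41, 5.08, 4.96 and 5.44 CPM in the CD8-poor libraries, with full overlap. P2ry6, the receptor for uridine diphosphate, averaged 14.9 ± 1.97 and 18.8 ± 3.16 CPM, also with overlap. The member that followed was Upb1, which acts late in the breakdown of uracil, at 2.34 ± 0.657 against 1.13 ± 0.168 CPM.

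A subset of the higher genes was far higher still in the library left out. In 28 of the 102, that library held at least 3 times the highest CD8-rich value, and in 22 at least 10 times. They include Mc1r, a melanocortin receptor, with the largest ratio of the named genes. Mc1r stood at 21.1, 19.5, 14.4, 9.60 and 12.4 CPM in the CD8-rich, at 5.69, 2.30, 6.94, 2.84 and 4.07 CPM in the CD8-poor and at 18.9 CPM in the middle library, against 347 CPM in the library left out. Itgb6, an epithelial integrin subunit, averaged 8.64 ± 1.71 against 3.17 ± 1.96 CPM and held 90.3 CPM there, Upb1 145 CPM, Il2ra 145 CPM, Siglech 69.6 CPM and Xcr1 45.4 CPM. The class II gene H2-DMb2 and the T cell gene Bcl11b were also among the 28, at 46.9 and 12.3 CPM there. The part of that library's high mitochondrial share in these values was not tested.

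The 24 libraries without H2-Ea-ps allowed a test of whether each gene follows Cd8a in tumours the split did not use. They form 2 classes by Cp, the ceruloplasmin gene, with a gap between 611 and 1389 CPM and 12 libraries in each. Cd8a ran from 0.851 to 36.3 CPM in the class with less Cp and from 11.9 to 57.9 CPM in that with more. The class with less Cp held CT26 IgG 24 at 0.851 and CT26 anti-PD-1 40 at 1.84 CPM. Its next lowest library, MC38 anti-PD-1 19, stood at 7.93 CPM. That class was not fitted without both low libraries together, so their joint weight in the slopes was not tested. The slope of each gene on log2 Cd8a, with the class as a term, was tested in edgeR (quasi-likelihood F test, p-values adjusted over 17497 genes by Benjamini-Hochberg). A positive slope was called for 354 genes (2.02%) and a negative slope for 32 (0.183%), and among the 13124 genes also described in the split 273 were called positive (2.08%).

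Of the 102 higher genes, 101 could be fitted, and 54 had a positive called slope, 0 a negative one and 88 a slope above 0. Of all 17497 genes fitted, 7992 had a slope above 0. Fitted alone, the class with less Cp gave 55 positive calls among the higher genes, and 297 among all 16737 genes fitted. The class with more Cp gave 7 among the higher genes, and 21 among all 16594 genes fitted. The test of the slope difference between the classes called 0 of the 101, with 5 at an unadjusted p under 0.05 (edgeR). A slope of 1 means that the gene doubles when Cd8a doubles. Cd8b1 had a slope of 1.04 ± 0.05 (SE, n = 24 libraries, edgeR adjusted p = 4.74e-13), Pdcd1 1.01 ± 0.06 (3.85e-12), Cd3g 0.97 ± 0.06 (2.00e-11) and Ifng 1.18 ± 0.21 (0.00106). By list, the test called 9 of 10 T cell, 3 of 3 cytotoxic and 2 of 4 checkpoint followers. It called 10 of 14 interferon gamma response, 6 of 7 class II and 1 of 2 dendritic cell followers. Of neutrophil, chemokine and pyrimidine followers it called 0 of 2, 0 of 2 and 0 of 1. Whole lists, with members that did not follow the split, gave 22 of 30 T cell, 11 of 22 cytotoxic and 10 of 22 checkpoint genes. They gave 13 of 22 interferon gamma response, 9 of 11 class II and 6 of 18 dendritic cell genes. Calls were thus not limited to followers.

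Slopes of class II and interferon gamma response genes varied among members. Cxcl9, a chemokine that attracts T cells, had 1.27 ± 0.20 (edgeR adjusted p = 0.000368), H2-Eb1 0.97 ± 0.14 (9.15e-05), Cd74 0.93 ± 0.13 (5.02e-05), Ciita 0.93 ± 0.16 (0.000956), Iigp1 0.76 ± 0.13 (0.000865) and Gbp2 0.61 ± 0.14 (0.0181). Apol6, from no list, had 1.38 ± 0.24 (0.00104), and Xcr1 0.67 ± 0.09 (3.22e-05), whereas Siglech was not called at 0.05 ± 0.12 (0.921). Cd274 missed the threshold at 0.37 ± 0.12 (0.117) and so did Icos at 0.51 ± 0.14 (0.0564), which does not show that they are unrelated to Cd8a there.

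Some genes that did not follow the split did follow Cd8a in these libraries. Among MHC class I genes 10 of 18 were called positive, B2m at 0.22 ± 0.05 (edgeR adjusted p = 0.0122) and H2-D1 at 0.24 ± 0.05 (0.00438). Il2rb was called at 0.56 ± 0.06 (8.61e-07). Of the type I interferon response genes 0 of 20 were called, all with slopes above 0.

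The followers with extreme values in the library left out are given apart. Of the 28 with at least 3 times the highest CD8-rich value there, 3 had a positive called slope, at a median slope of 0.03, against 51 of the 73 fitted others, at a median of 0.50, a difference that was not itself tested. Mc1r had a slope of -0.08 ± 0.19 (edgeR adjusted p = 0.922), Itgb6 -0.02 ± 0.13 (0.98) and Upb1 -0.02 ± 0.13 (0.982). S100a9, at 0.20 ± 0.20 (0.783), and Cxcl1, at 0.02 ± 0.22 (0.989), were also not called.

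Of the 9 lower genes, all 9 could be fitted and 1 had a negative called slope. It was Fcrls, at -0.48 ± 0.11 (edgeR adjusted p = 0.0163). Mest and Nxpe5 had slopes of -0.19 ± 0.12 (0.609) and -0.08 ± 0.07 (0.711).

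**Figure D4:**
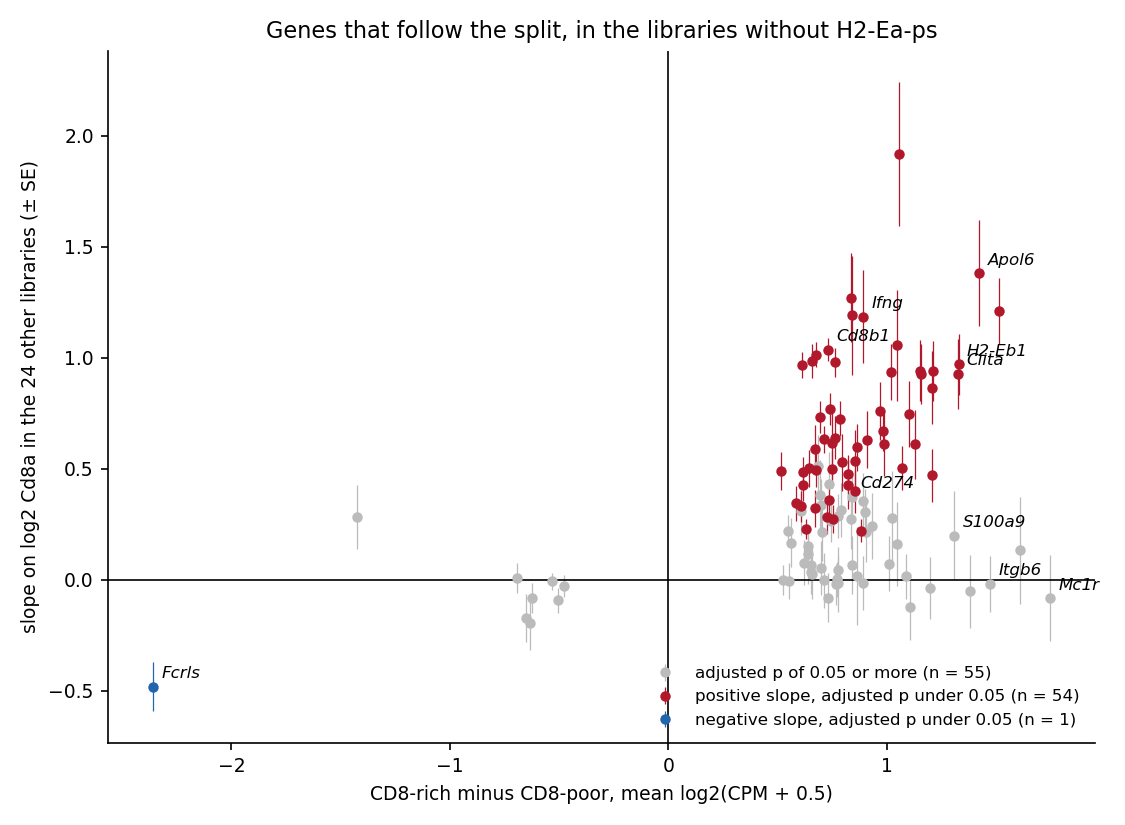
For each gene that follows the split, the x axis gives the CD8-rich minus CD8-poor difference in mean log2(CPM + 0.5) and the y axis its slope on log2 Cd8a in the 24 libraries without H2-Ea-ps, with bars for the SE. The 54 red points passed the edgeR test with positive slopes, Fcrls passed with a negative one, and Mc1r and Itgb6 combine large differences with slopes near 0.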

How the data were processed

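Per the labels, RNA of each tumour gave 1 poly-A selected TruSeq library. The authors deposited unnormalized counts of reads per gene, mapped with TopHat and Bowtie to GRCm38/mm10 and assigned with HTSeq. HTSeq sets aside reads with several positions, and use of strand is not given in the sources used here. The table held 37417 genes and 5 summary rows, which named no gene, made up 53.4% to 63.3% of listed reads in the 10 grouped libraries and 86.5% in PancO2 anti-PD-1 71, and were left out.

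CPM is the count divided by the library's sum over named genes. Group differences are means of log2(CPM + 0.5) and no test was made of them. Slopes were tested on counts with edgeR 4.0.16 in R 4.3.3 (filterByExpr, TMM, robust glmQLFit, two-sided, adjusted p under 0.05), and the SE is the slope divided by the square root of F. Alternatives were DESeq2 1.42.0 and limma-voom 3.58.1. Steps were tested on simulated data. Symbols were found for 32608 genes, and coordinates came from GENCODE vM21. Python 3.11.15 and matplotlib 3.10.9 were used.

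Named genes were Cd8a, H2-Ea-ps, Cd8b1, Cd4, Foxp3, Cda, P2ry6 and Cd274, per list up to 5 followers and 2 others with the highest mean CPM, and up to 10 genes per direction of at least 5 CPM with the largest ratio. The members, lists and rules were chosen with earlier results of these data known, and the lists hold no independent support. Libraries carry separate mouse numbers. No pair of class libraries agreed within sampling noise (chi-square per degree of freedom at least 6.91). Results for some named genes are not reported here.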

Additional observations from a re-analysis of the deposited data

Results flagged for a closer look

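For 84 named genes, the 5 CPM values of each group were tested for 1 value far from the other 4. There were 17 cases among 168 sets. Chance alone gives about 8.4 if the CPM values within a group are normally distributed, which was not checked. The sets share the same libraries and are not independent, so the excess over 8.4 is a description. In the CD8-poor group, 7 of the 17 fell to PancO2 anti-CTLA4 62. That library was high in Oasl2 (179.6 CPM, others up to 111.9), Lgals9 (88.23), Ighm (17.41), Siglech (1.331) and the muscle genes Ttn (71.29, others up to 17.24) and Acta1 (61.54, others up to 14.05), and low in Cxcl1 (7.482, others from 12.62). PancO2 anti-PD-1 64 was high in Tnfrsf9 (150.7) and Cxcl1 (40.44) and low in Mki67 (373.0, others from 546.9). CT26 anti-CTLA4 34 was likewise high in Tnfrsf9 (124.9) and low in Mki67 (394.8, others from 568.6). MC38 anti-PD-1 16 was low in Fscn1 (112.9) and Gm4841 (10.6), CT26 IgG 27 was high in Col1a2 (1640) and Gm12185 (40.09), and PancO2 IgG 54 was high in Mmp9 (43.24, others up to 9.029).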

How the results depend on the processing

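The counts of genes that follow the split depended on its conditions, and those of 102 higher and 9 lower genes became 201 and 22 without the minimum level, 55 and 3 at 5 CPM, 33 and 2 at a ratio of 2, 163 and 97 without a ratio and 245 and 215 for the upper 3 against the lower 3, of which 98 and 9 were shared. With PancO2 anti-PD-1 71 kept, 6 against 6, they were 54 and 6, sharing 33 and 3. Ranked by the summed Cd3 genes, 75 were higher and 16 lower. TMM and DESeq2 scaling gave 110 and 112 higher and 9 lower genes each. Leaving out 1 library gave 100 to 175 higher and 4 to 31 lower genes, with 175 and 4 without PancO2 anti-CTLA4 62, and 17, 24 and 31 lower without MC38 IgG 4, CT26 anti-CTLA4 34 and MC38 IgG 3. In the 24 other libraries, negative slopes numbered 21 without the filter and 60 with the DESeq2 test. In the class with more Cp alone, positive slopes numbered 21, negative slopes 0 by edgeR, and higher and lower followers called 7 and 0, against 55 higher followers in the class with less Cp. A test of the slope difference between the classes, added after the data were seen, called 0 of 18001 genes by edgeR, with 562 at an unadjusted p under 0.05. Leaving out 1 of the 24 gave 245 to 366 positive and 11 to 39 negative slopes, 41 to 55 higher followers called and 0 or 1 lower ones, with 0 and 12 negative slopes without CT26 anti-PD-1 40, 11 without CT26 IgG 24, 18 without MC38 IgG 2, 19 without PancO2 IgG 49 and 20 without MC38 anti-PD-1 17. The cause of these shifts was not tested. No paired analysis was possible because no mouse number is shared by 2 libraries. Genes at 1 to 2 CPM rest on few reads, and Ifng was counted at 0.299 to 1.99 CPM.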
